A study of Homo sapiens with 12 samples.

Results

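The inflammasome genes described here are 10 rows of a table of read pairs counted on 58288 genes, picked by gene symbol. No measured value enters that rule, though the set was chosen with earlier results of these data known. They are the sensors NLRP3, NLRP1, NLRC4, NAIP and AIM2, the adaptor PYCARD (also called ASC), the inflammatory caspases CASP1, CASP4 and CASP5, and the pore-forming protein gene GSDMD. Inflammasomes are protein platforms that assemble in the cytosol when a sensor meets a microbial product or a sign of cell damage. The adaptor links many sensors to caspase-1, which matures the cytokines IL-1β and IL-18 and cuts gasdermin D, whose released part forms pores in the cell membrane. In myeloid cells this machinery is known for the release of IL-1β and for pyroptosis, and the supply of NLRP3 and of pro-IL-1β is classically raised by a first, priming signal such as TNF-α or a Toll-like receptor ligand.

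RNA was taken from HL-60/S4, an established cell line from an acute promyelocytic leukemia, and sequenced after removal of ribosomal RNA. Promyelocytes were undifferentiated cells, and granulocytes were the same line after 1 µM all-trans retinoic acid (ATRA) for 4 days. Each was given TNF-α at 16 ng/mL or an equal volume of water (vehicle) for 2 h, in medium with added calcium, which makes 4 groups of 3 libraries, each from its own flask of cells at passage 8. All groups come from 1 cell line. The promyelocytes and the granulocytes were treated in separate experiments, so that cell type and experiment cannot be told apart wherever their levels are set side by side.

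Library totals ran from 22829189 to 31895061 read pairs, and levels are given as CPM, which are counts scaled to a library of 1000000 read pairs after TMM normalization. The labels held against marker genes, taken as sums. The 7 promyelocyte markers, such as MPO and ELANE, summed to 7777 to 8614 CPM in vehicle-treated promyelocytes. They summed to 2245 to 2463 CPM in vehicle-treated granulocytes, where ELANE was at or under the floor of 3 counts per library. In vehicle-treated promyelocytes most of the sum was MPO (6422.5 CPM) and PRTN3 (1153 CPM), and ELANE stood at 1.79 CPM. CD34 did not separate the groups, with 2 to 4 counts in vehicle-treated promyelocytes and 0 to 2 in vehicle-treated granulocytes. The sum of 8 granulocyte markers, such as ITGAM and CSF3R, was 180 to 191 CPM in the former and 4883 to 5142 CPM in the latter. Most of the latter was CYBB (2106 CPM), NCF1 (1217 CPM) and CD38 (1164 CPM), with CSF3R at 46.5 CPM. All 8 were called higher in vehicle-treated granulocytes. Of 5 secondary granule genes, LCN2 had no count in any library, LTF had none with vehicle, and MMP9 held 42 to 83 counts with vehicle and rose with TNF-α, 6.03-fold in promyelocytes and 11.9-fold in granulocytes. The summed level of 8 monocyte and macrophage markers was 3.93 to 4.80 CPM in vehicle-treated promyelocytes, 49.4 to 51.5 CPM in vehicle-treated granulocytes and 30.7 to 34.2 CPM in granulocytes with TNF-α, with MARCO at 0 in every library and CD163 and MRC1 at or under the floor. Nearly all of that sum was CSF1R, at 49.7 CPM in vehicle-treated granulocytes and 32.2 CPM with TNF-α, while CD14 stood at 0.186 and 0.309 CPM. In bulk RNA, fewer cells of a type and less RNA per cell cannot be told apart. The 4 genes used to check the treatment (TNFAIP3, NFKBIA, ICAM1, CXCL8) rose in both cell types, from a sum of 78.3 to 80.8 CPM to 1097 to 1150 CPM in promyelocytes and from 260 to 282 CPM to 4780 to 5133 CPM in granulocytes.

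Promoters were read for 6 of the 10 genes from RefSeq (GRCh38.p14, the 250 bases before the annotated start). The bases that lie outside annotated exons are shown for NLRP3 and NLRC4, the genes that changed with TNF-α in both cell types, and for CASP5, which holds a motif searched for. NLRC4 has several annotated starts, and the stretch before only 1 of them is shown. AIM2, whose matches are given below, is not shown. Each is written 5′ to 3′ on the strand of its gene, and capitals mark GAAA, any 2 bases and GAAA again, a core of the interferon response element.
NLRP3, chr1:247415923-247416155, plus strand: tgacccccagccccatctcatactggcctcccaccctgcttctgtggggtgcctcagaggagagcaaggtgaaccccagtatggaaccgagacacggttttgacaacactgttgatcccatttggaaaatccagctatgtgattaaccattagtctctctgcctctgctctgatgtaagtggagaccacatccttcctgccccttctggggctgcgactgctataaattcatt
NLRC4, chr2:32265855-32265993, minus strand: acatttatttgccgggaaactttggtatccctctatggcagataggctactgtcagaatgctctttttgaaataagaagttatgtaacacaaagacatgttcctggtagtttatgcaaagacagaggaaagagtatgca
CASP5, chr11:105023169-105023418, minus strand: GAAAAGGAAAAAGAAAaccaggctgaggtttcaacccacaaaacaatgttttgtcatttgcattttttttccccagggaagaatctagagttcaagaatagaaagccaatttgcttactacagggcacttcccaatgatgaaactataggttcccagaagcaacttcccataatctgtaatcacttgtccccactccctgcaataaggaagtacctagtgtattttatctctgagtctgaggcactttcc
Both strands were searched. This core was found at 2 overlapping positions upstream of CASP5 and at 1 upstream of AIM2, and in 3.02% of 35116 promoters. The AP-1 letters TGANTCA were found upstream of AIM2 alone among the 6 genes, and in 6.57% of all promoters. The kB consensus, the DNA letters bound by NF-κB, was found in none of the members' windows and in 9.96% of all promoters. A match or its absence describes these letters in this window only.

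Among the members, NLRP3 rose with TNF-α in both cell types, by 1.73-fold in promyelocytes and 2.92-fold in granulocytes, while the sensor gene NLRC4 fell in both, 2.20-fold and 2.14-fold. In granulocytes the sensors NLRP1 and NAIP fell as well, 3.71-fold and 2.25-fold, and the gene of caspase-1 fell by 1.17-fold. By the same estimates after TMM scaling, the adaptor, CASP4 and GSDMD changed by at most 1.23-fold in either cell type and did not pass the test. The size of these small changes depended on the scaling, as given below for TPM. In promyelocytes 8 of the 10 genes had enough counts to be tested, and 1 was called higher and 1 lower by edgeR's quasi-likelihood test at an adjusted p of 0.05, against 14.8% of all 16250 genes tested (8.15% higher and 6.65% lower). In granulocytes 9 were tested, 1 was called higher and 4 lower, against 49.2% of all 16944 genes tested (24.4% higher and 24.8% lower). The median log2 fold change of the members tested was -0.21 in promyelocytes, where that of all genes was -0.0094, and -0.23 in granulocytes, where that of all genes was -0.0047. Marker levels moved with TNF-α too. In promyelocytes the 7 promyelocyte markers summed to 6397 to 7292 CPM with TNF-α (4 called lower and 1 higher) and the 8 granulocyte markers to 285 to 303 CPM (2 called higher and 1 lower). In granulocytes the granulocyte markers summed to 5383 to 5743 CPM with TNF-α (2 called higher and 4 lower), and CSF1R fell as given above. The promyelocyte markers of granulocytes summed to 2182 to 2388 CPM with TNF-α (1 called higher, CD34, and 1 lower, MYB). The part of these shifts in the members' changes was not tested.

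**Figure D1:**
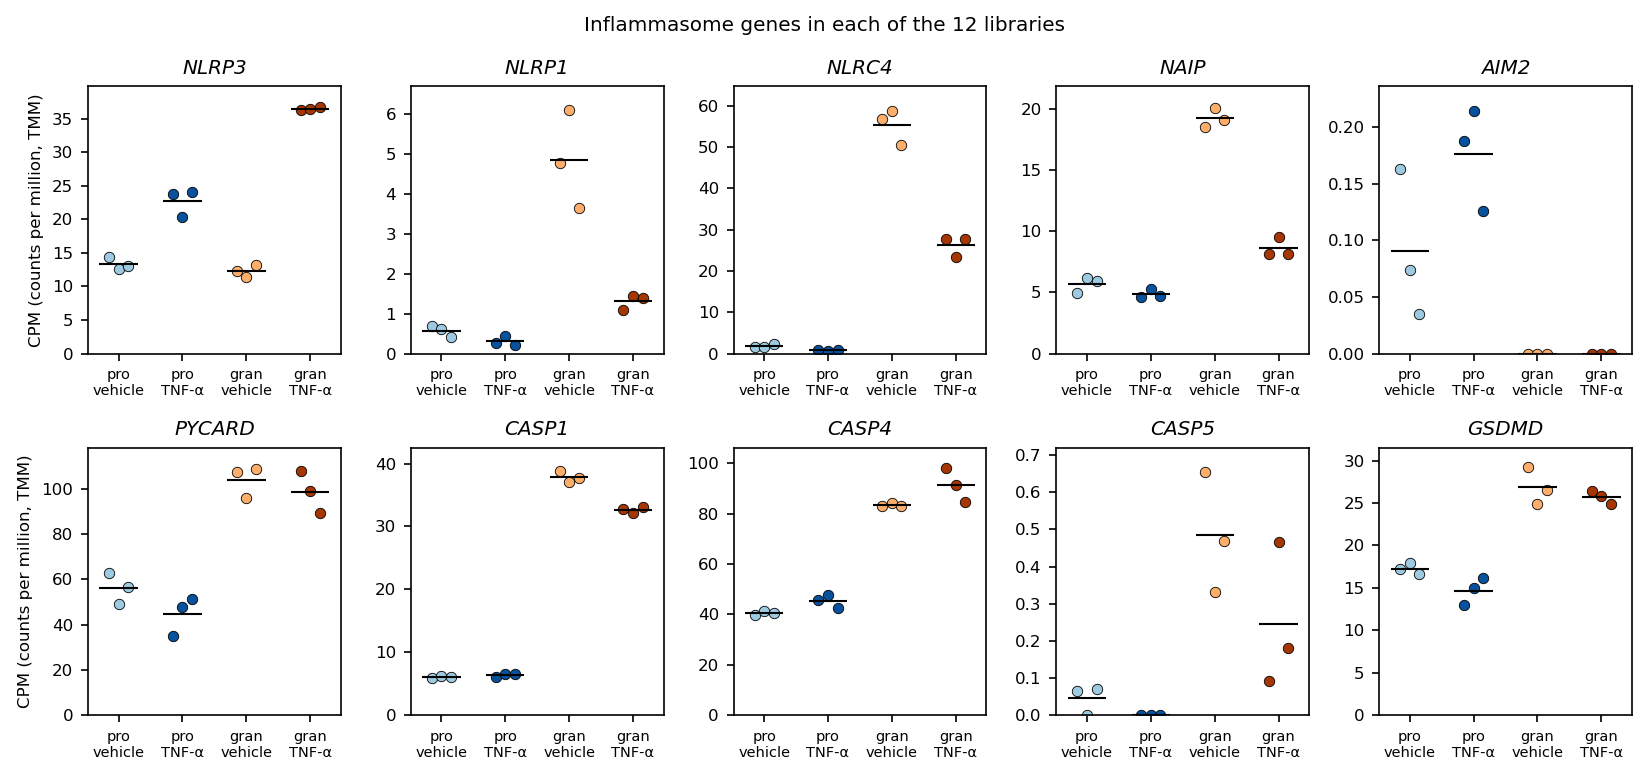
CPM (TMM scaled, linear axes from 0) of the 10 inflammasome genes in vehicle-treated and TNF-α treated promyelocytes (pro) and granulocytes (gran), with 1 point per library and a line at each mean of 3. NLRP3 is higher with TNF-α in both cell types, and AIM2 has no count in granulocytes. NLRP1, NLRC4 and NAIP are higher in vehicle-treated granulocytes than in any other group, granulocytes with TNF-α included.

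NLRP3 (ENSG00000162711.16, hg38 chromosome 1, 247416156 to 247449108) encodes the sensor that responds to potassium efflux, crystals and many other insults. In promyelocytes it stood at 14.5, 12.5 and 13.04 CPM with vehicle and at 23.8, 20.4 and 24.1 CPM with TNF-α. In granulocytes it stood at 12.3, 11.5 and 13.3 CPM with vehicle and at 36.3, 36.4 and 36.7 CPM with TNF-α. Every TNF-α library was above every vehicle library of its cell type, as for CASP4 alone among the other members, and the 3 vehicle libraries of the cell types overlapped. The log2 fold change was 0.79 (SE 0.0909, adjusted p = 2.07e-06, edgeR) in promyelocytes and 1.55 (SE 0.0735, adjusted p = 6.49e-20, edgeR) in granulocytes. The response was 1.73-fold larger in granulocytes (log2 difference 0.79, SE 0.117, adjusted p = 1.05e-05, edgeR interaction). Between the vehicle groups NLRP3 did not pass the test (log2 difference of granulocytes over promyelocytes -0.11, 95% interval -0.28 to 0.06, adjusted p = 0.255, edgeR).

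NLRC4 (ENSG00000091106.18, chromosome 2, 32224453 to 32265854, minus strand) encodes the partner that assembles into an inflammasome once NAIP has bound bacterial flagellin or secretion system proteins. In promyelocytes its level was low, with 52, 41 and 65 counts with vehicle and 25, 20 and 25 counts with TNF-α, or 1.70, 1.51 and 2.24 CPM against 0.940, 0.714 and 0.788 CPM. In granulocytes it reached 56.9, 58.8 and 50.6 CPM with vehicle and 27.8, 23.3 and 27.7 CPM with TNF-α. The groups did not overlap in either cell type, and the TNF-α treated granulocytes stayed above all promyelocytes. The log2 fold change was -1.14 (SE 0.274, adjusted p = 0.00687, edgeR) in promyelocytes and -1.10 (SE 0.0688, adjusted p = 2.95e-16, edgeR) in granulocytes. The difference of the responses was 0.08 on the log2 scale (95% interval -0.36 to 0.52) and did not pass the test (adjusted p = 0.843, edgeR), and its direction turned without the expression filter and when either the second TNF-α or the third vehicle library of promyelocytes was left out.

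NAIP (ENSG00000249437.7, chromosome 5, 70968483 to 71025114, minus strand) encodes the receptor that binds bacterial ligands and then assembles with NLRC4. It stood at 4.96, 6.21 and 5.97 CPM in vehicle-treated promyelocytes and at 4.63, 5.29 and 4.69 CPM with TNF-α, groups that overlapped. In granulocytes the vehicle libraries held 18.5, 20.1 and 19.1 CPM and the TNF-α libraries 8.18, 9.52 and 8.13 CPM, with no overlap. The log2 fold change was -0.21 (SE 0.143, adjusted p = 0.391, edgeR) in promyelocytes and -1.17 (SE 0.0909, adjusted p = 1.40e-13, edgeR) in granulocytes, and the responses differed (log2 difference -0.93, SE 0.157, adjusted p = 6.49e-05, edgeR). These counts are uncertain, since 83.1% of the 9513 exon bases of NAIP have a copy at least 98% identical elsewhere, at the pseudogenes NAIPP1 to NAIPP4 of the same chromosome. With the counts of these 4 pseudogenes added to those of NAIP, an alternative chosen after the data were seen, the log2 fold change of promyelocytes was -0.11 and that of granulocytes -0.99. The difference of the responses was then -0.84 (adjusted p = 5.42e-06, edgeR).

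NLRP1 (ENSG00000091592.15, chromosome 17, 5499427 to 5619424, minus strand) encodes a sensor that is activated when its own amino-terminal part is degraded. In promyelocytes it had 21, 17 and 12 counts with vehicle and 7, 12 and 7 counts with TNF-α. In granulocytes it stood at 4.77, 6.09 and 3.65 CPM with vehicle and at 1.08, 1.43 and 1.40 CPM with TNF-α. The granulocyte groups did not overlap, while those of promyelocytes met at 12 counts. The log2 fold change of -1.89 in granulocytes passed the test (SE 0.210, adjusted p = 1.11e-09, edgeR) and was the most negative among the members, whereas that of -0.89 in promyelocytes did not (SE 0.434, adjusted p = 0.193, edgeR). The difference of the responses, -0.96 on the log2 scale, did not pass either (SE 0.478, adjusted p = 0.156, edgeR).

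AIM2 (ENSG00000163568.14, chromosome 1, 159062484 to 159147096, minus strand) encodes the sensor of double-stranded DNA in the cytosol. It had 5, 2 and 1 counts in vehicle-treated promyelocytes, 5, 6 and 4 counts with TNF-α, and 0 in all 6 granulocyte libraries. A count of 0 allows up to 0.0992 to 0.136 CPM at the depth of these granulocyte libraries, and the mean of vehicle-treated promyelocytes was 0.0904 CPM, so no fold is given. The gene was removed by the filter on low counts in every comparison. Tested without that filter, its vehicle levels gave an adjusted p of 0.0345 with edgeR, and an adjusted p of 0.0532 with DESeq2.

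PYCARD (ENSG00000103490.13, chromosome 16, 31201485 to 31203450, minus strand), which encodes the adaptor ASC, had the highest level per length of the members in all 4 groups. In promyelocytes it stood at 62.7, 49.3 and 56.6 CPM with vehicle and at 35.1, 47.9 and 51.2 CPM with TNF-α. In granulocytes the values were 107.7, 96.0 and 109.1 CPM with vehicle and 108.0, 99.1 and 89.5 CPM with TNF-α. The treated and untreated libraries overlapped in both cell types. The log2 fold change was -0.30 (SE 0.104, adjusted p = 0.0557, edgeR) in promyelocytes and -0.09 (SE 0.0579, adjusted p = 0.201, edgeR) in granulocytes. Calls for this gene moved with the processing: it was called lower in promyelocytes without the filter on low counts (adjusted p = 0.000689, edgeR) and in a fit of all 12 libraries (adjusted p = 0.0234, edgeR), and in granulocytes when trends with GC content and gene length were removed (log2 fold change -0.25, adjusted p = 2.58e-05, edgeR). Its exons hold 61.0% GC.

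CASP1, CASP4 and CASP5 lie side by side on the minus strand of chromosome 11. CASP1 (ENSG00000137752.23, 105025443 to 105035250) encodes caspase-1, the protease that inflammasomes activate. It stood at 5.85, 6.21 and 6.004 CPM in vehicle-treated promyelocytes and at 6.05, 6.54 and 6.49 CPM with TNF-α, groups that overlapped. In granulocytes it stood at 38.9, 37.1 and 37.8 CPM with vehicle and at 32.8, 32.1 and 33.2 CPM with TNF-α, with no overlap. The log2 fold change was 0.10 (SE 0.124, adjusted p = 0.643, edgeR) in promyelocytes and -0.23 (SE 0.0608, adjusted p = 0.00194, edgeR) in granulocytes. The difference of the responses, -0.30 on the log2 scale, did not pass the test (SE 0.112, adjusted p = 0.0563, edgeR), but was called with DESeq2's size factors (adjusted p = 0.0246, edgeR) and by DESeq2 itself (adjusted p = 0.0301).

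CASP4 (ENSG00000196954.13, 104942866 to 104969436) and CASP5 (ENSG00000137757.10, 104994235 to 105023168) encode the caspases that bind lipopolysaccharide in the cytosol and cut gasdermin D directly. CASP4 stood at 39.8, 41.5 and 40.6 CPM in vehicle-treated promyelocytes and at 45.6, 47.7 and 42.7 CPM with TNF-α, and in granulocytes at 83.3, 84.2 and 83.1 CPM with vehicle and 98.4, 91.5 and 84.6 CPM with TNF-α. In CPM, all TNF-α libraries were above all vehicle libraries in both cell types, by little. In TPM, the level per length scaled to the same total in each library, the direction in granulocytes turned. The TPM mean of granulocytes was 37.8 ± 0.955 (SD, n = 3) with vehicle and 34.7 ± 1.22 with TNF-α. The log2 fold changes of 0.18 (SE 0.0655, adjusted p = 0.0740, edgeR) in promyelocytes and 0.12 (SE 0.0536, adjusted p = 0.0705, edgeR) in granulocytes did not pass the test. The promyelocyte value was called without the third TNF-α library (0.23, adjusted p = 0.0328, edgeR), and the granulocyte value without the third TNF-α library of that cell type (0.17, adjusted p = 0.0111, edgeR).

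CASP5 was scarce. It had 2, 0 and 2 counts in vehicle-treated promyelocytes, 0 in all 3 with TNF-α, 17, 10 and 14 in vehicle-treated granulocytes and 2, 13 and 4 with TNF-α. The granulocyte groups overlapped through the second TNF-α library, and the log2 fold change of -0.89 did not pass the test (SE 0.503, adjusted p = 0.145, edgeR). Without that library it was -1.80 (adjusted p = 0.0282, edgeR).

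GSDMD (ENSG00000104518.10, chromosome 8, 143553207 to 143563062) encodes gasdermin D, the pore. In promyelocytes it stood at 17.2, 17.98 and 16.6 CPM with vehicle and at 12.9, 14.9 and 16.2 CPM with TNF-α. In granulocytes the values were 29.2, 24.9 and 26.5 CPM with vehicle and 26.5, 25.8 and 24.9 CPM with TNF-α. The promyelocyte groups did not overlap and those of granulocytes did. Neither change passed the test, with log2 fold changes of -0.21 (SE 0.0940, adjusted p = 0.157, edgeR) and -0.08 (SE 0.0703, adjusted p = 0.391, edgeR). With the trends of GC content and gene length removed, the granulocyte value was -0.27 (adjusted p = 0.000813, edgeR), and the exons of GSDMD hold 65.2% GC.

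**Figure D2:**
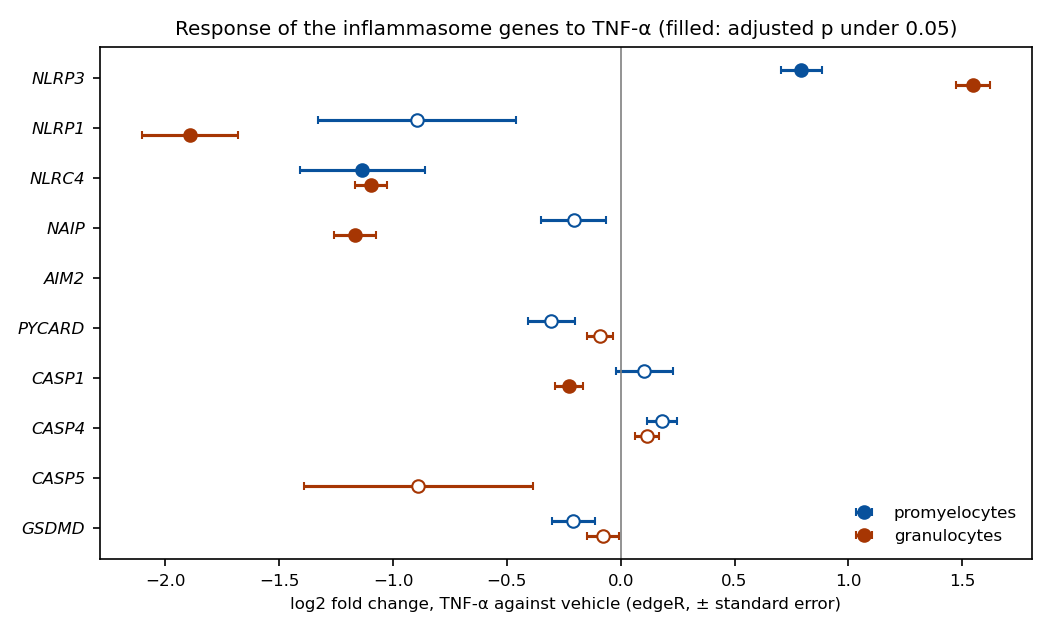
Log2 fold change with TNF-α (horizontal axis, edgeR estimate with its standard error) of each inflammasome gene in promyelocytes and granulocytes, where filled points passed an adjusted p of 0.05 and genes with too few counts have no point. NLRP3 lies to the right of 0 in both cell types, at 0.79 and 1.55, and NLRC4 to the left in both, at -1.14 and -1.10.

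No overlap in CPM between treated and untreated libraries was seen for 4 of the 8 members tested in promyelocytes, against 30.9% of all genes tested. These were NLRP3 and CASP4, higher, and NLRC4 and GSDMD, lower. In granulocytes no overlap in CPM was seen for 6 of the 9 tested, against 55.1% of all genes tested. These were NLRP3 and CASP4, higher, and NLRP1, NLRC4, NAIP and CASP1, lower. The test of the difference between the cell types called 2 of the 9 members tested, NLRP3 and NAIP, 1 higher and 1 lower, against 24% of all 18124 genes tested (14.1% higher and 9.88% lower). Over all genes, 2561 differences were called higher in granulocytes and 1790 lower, and with DESeq2's size factors 2128 and 2266.

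Between the vehicle groups, the granulocytes held more RNA of most members, with cell type and experiment joined as above. Of 9 genes tested, 8 were called higher in granulocytes and none lower (edgeR, adjusted p under 0.05), where 72% of all 18124 genes tested were called (35.7% higher and 36.3% lower). These counts partly follow from the filter on low counts. CASP5, 1 of the 8, passed it through granulocyte libraries only. AIM2, with 1 to 5 counts in vehicle-treated promyelocytes and 0 in granulocytes, was removed by it. The median log2 difference was 1.75 over the members tested and 0.0084 over all genes tested. The sensor gene NLRC4 was 30.4-fold higher (log2 difference 4.93, SE 0.117, adjusted p = 5.30e-23, edgeR), NLRP1, with 12 to 21 counts in the promyelocyte libraries, 8.35-fold (3.06, SE 0.263), CASP1 6.30-fold (2.65, SE 0.0772) and NAIP 3.37-fold (1.75, SE 0.104). Also called higher were CASP4 (log2 difference 1.04, SE 0.0605), PYCARD (0.89, SE 0.0971) and GSDMD (0.64, SE 0.0819), with adjusted p of 1.03e-07 or lower by edgeR. CASP5 summed to 41 counts in the granulocyte and 4 in the promyelocyte vehicle libraries, a ratio per library size of 10.3 (95% exact counting interval 3.74 to 39.7, counting error only; adjusted p = 0.000357, edgeR). All vehicle granulocyte libraries were above all vehicle promyelocyte libraries for these 8 of the 9 genes tested, against 74.4% of all genes tested, and overlap was seen for NLRP3.

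The order of the members by level per length, as RPKM (CPM divided by the exon length in kilobases), differed between the groups. In vehicle-treated promyelocytes PYCARD led at 33.8 RPKM ± 4.04 (SD, n = 3), followed by CASP4 at 5.60 ± 0.120, GSDMD at 3.38 ± 0.132, NLRP3 at 2.81 ± 0.210 and CASP1 at 1.63 ± 0.0499. NAIP (0.601 ± 0.0696) and NLRC4 (0.501 ± 0.105) followed with overlapping ranges, and AIM2, NLRP1 and CASP5 stood below 0.05 RPKM with ranges that overlapped. With TNF-α, promyelocytes kept PYCARD (26.9 ± 5.13) and CASP4 (6.25 ± 0.343) at the head, and NLRP3 (4.79 ± 0.429) now stood above GSDMD (2.87 ± 0.318).

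In vehicle-treated granulocytes PYCARD (62.8 RPKM ± 4.32) was followed by NLRC4 (15.3 ± 1.18), CASP4 (11.5 ± 0.0814), CASP1 (10.2 ± 0.250), GSDMD (5.25 ± 0.430), NLRP3 (2.60 ± 0.188) and NAIP (2.02 ± 0.0820). NLRP1 (0.378 ± 0.0951) and CASP5 (0.304 ± 0.102) overlapped below these. With TNF-α, the order in granulocytes was PYCARD (59.5 ± 5.56), CASP4 (12.6 ± 0.952), CASP1 (8.84 ± 0.144), NLRP3 (7.67 ± 0.0449) and NLRC4 (7.25 ± 0.711), the last 2 with overlapping ranges, then GSDMD (5.03 ± 0.159) and NAIP (0.905 ± 0.0829). Among the 5 sensor members alone, NLRC4 had the highest level per length in vehicle-treated granulocytes and NLRP3 in promyelocytes.

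The balance of these sensors was read within each library as the ratio of NLRP3 to NLRC4 in RPKM, a description that rests on the same counts. It ran from 4.43 to 6.49 in vehicle-treated promyelocytes and from 19.3 to 23.3 with TNF-α. In granulocytes it ran from 0.149 to 0.200 with vehicle and from 0.996 to 1.19 with TNF-α. The ranges of the 4 groups were separate. The ratio of CASP1 to CASP4 in RPKM ran from 0.863 to 0.916 in vehicle-treated granulocytes and from 0.653 to 0.770 with TNF-α, and from 0.260 to 0.298 over all promyelocyte libraries.

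**Figure D3:**
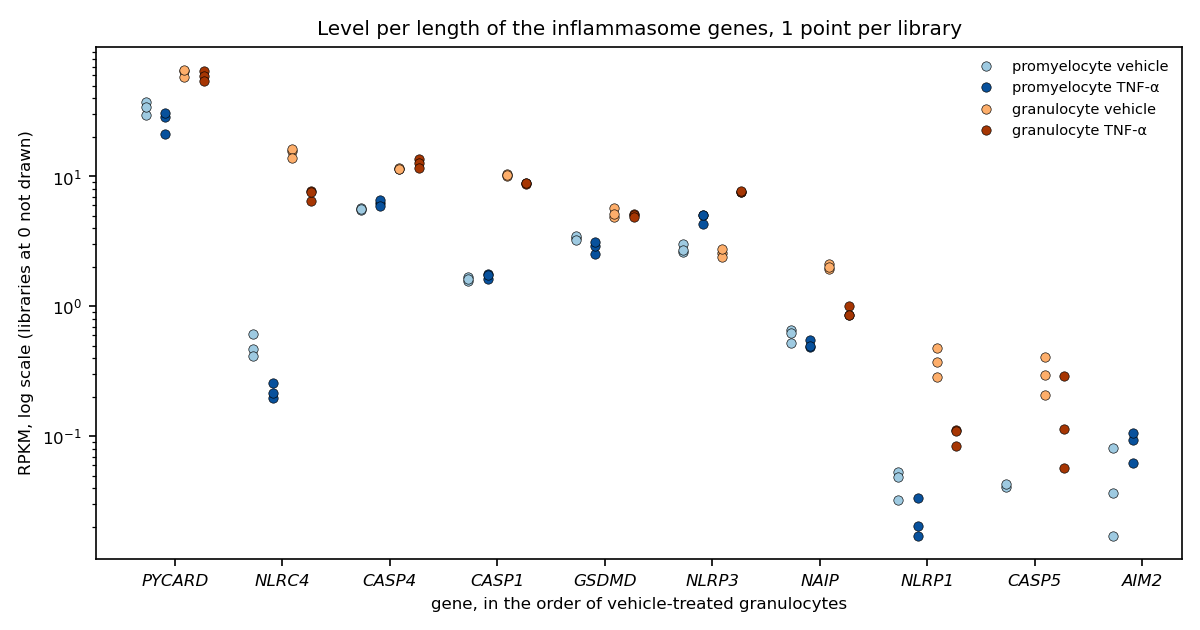
Level per length (RPKM, log axis) of each inflammasome gene in the 4 groups, with 1 point per library and libraries at 0 left out. PYCARD is highest in every group, and NLRC4 spans from 0.197 RPKM in promyelocytes with TNF-α to 16.2 RPKM in vehicle-treated granulocytes.

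The rest of the pathway was read from 3 lists of 37 genes in all: other sensors, regulators, and substrates and effectors. Of 10 other sensors, 5 had enough counts to be tested, and with TNF-α 1 fell and none rose in promyelocytes, while all 5 fell in granulocytes, against 6.65% of all genes tested called lower in promyelocytes and 24.8% in granulocytes. NOD1, a sensor of bacterial peptidoglycan, fell in both, from 27.3 to 19.4 CPM in promyelocytes (log2 fold change -0.47, SE 0.0826, adjusted p = 0.000364, edgeR) and from 31.1 to 19.9 CPM in granulocytes (-0.67, SE 0.0745, adjusted p = 1.30e-09, edgeR). NLRP12 fell in granulocytes by 1.62 on the log2 scale, the DNA sensor IFI16 by 0.64 and CARD8, a sensor related to NLRP1, by 0.39, and the adjusted p of each was 2.75e-05 or lower by edgeR. The same genes had log2 fold changes of -0.31, -0.13 and 0.0008 in promyelocytes and were not called there. NLRP12 was scarce, with 51 to 61 counts with vehicle and 7 to 20 with TNF-α in granulocytes. In promyelocytes it had 23 to 33 and 12 to 34. The test of the difference passed for IFI16 (-0.48, adjusted p = 0.000522, edgeR) and CARD8 (-0.35, adjusted p = 0.00125, edgeR) and not for NLRP12 (-1.28, adjusted p = 0.0531, edgeR). The median log2 fold change of the 5 tested was -0.31 in promyelocytes and -0.64 in granulocytes. MEFV, which had too few counts to be tested, went the other way in granulocytes. It had 0 to 3 counts with vehicle and 9 to 16 with TNF-α, with no overlap in CPM.

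Of 18 regulators, 14 were tested in each cell type, and 4 rose and 2 fell in promyelocytes, while 8 rose and 5 fell in granulocytes, against 14.8% and 49.2% of all genes tested called in either direction. The guanylate-binding proteins, GTPases that coat bacteria and assist caspase-4, gave the largest values. GBP2 rose from 4.90 to 12.7 CPM in promyelocytes (log2 fold change 1.40, SE 0.122) and from 11.8 to 95.2 CPM in granulocytes (2.996, SE 0.0678), with an adjusted p of 4.34e-08 or lower by edgeR. GBP5 rose by 2.49 (SE 0.372) in promyelocytes, where the vehicle libraries held 5 to 8 counts, and by 0.72 (SE 0.177) in granulocytes. GBP1 had 0 to 4 counts in promyelocytes and rose in granulocytes from 1.60 to 9.82 CPM (log2 fold change 2.60, SE 0.152, adjusted p = 3.26e-17, edgeR). PSTPIP1, whose protein binds pyrin, fell by 0.70 (SE 0.0745) and by 1.08 (SE 0.0581) on the log2 scale. The median log2 fold change of the regulators tested was 0.13 in promyelocytes and 0.23 in granulocytes.

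Of 9 substrates and effectors, 6 were tested, and 3 rose in each cell type, while 1 fell in granulocytes. Of all genes tested, 8.15% were called higher in promyelocytes, and 24.4% higher and 24.8% lower in granulocytes. IL1B, the gene of the cytokine that caspase-1 matures, stood at 14.5, 16.6 and 13.6 CPM in vehicle-treated promyelocytes and at 92.1, 95.2 and 89.9 CPM with TNF-α. In granulocytes it stood at 9.46, 10.2 and 10.4 CPM with vehicle and at 341.9, 317.1 and 284.6 CPM with TNF-α. The groups were far apart, with log2 fold changes of 2.66 (SE 0.0743, adjusted p = 5.61e-16, edgeR) and 4.96 (SE 0.0697, adjusted p = 8.45e-37, edgeR). IL1A rose by 4.33 (SE 0.212) and 7.13 (SE 0.101), and NINJ1, which ruptures the membrane in the last step of pyroptosis, by 1.40 (SE 0.0721) and 1.69 (SE 0.0591). With vehicle, IL1A had 10 to 17 counts per library in promyelocytes and 20 to 32 in granulocytes.

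IL18, the other cytokine gene whose product caspase-1 matures, had 1.73, 2.28 and 2.07 CPM in vehicle-treated promyelocytes and 1.92, 1.54 and 2.49 CPM with TNF-α, and the log2 fold change was 5.93e-05 (SE 0.186, adjusted p = 1.00, edgeR). In granulocytes it fell from 19.7, 18.6 and 18.3 CPM to 11.2, 13.2 and 12.2 CPM (log2 fold change -0.63, SE 0.0852, adjusted p = 7.85e-08, edgeR), with no overlap. Vehicle-treated granulocytes held 9.32-fold more IL18 RNA than vehicle-treated promyelocytes (log2 difference 3.22, SE 0.134, adjusted p = 9.86e-18, edgeR). IL1B RNA was lower in these granulocytes (log2 difference -0.57, SE 0.0874, adjusted p = 1.91e-06, edgeR). Of 26 other pathway genes tested between the vehicle groups, 18 were called higher in granulocytes and 6 lower. The shares over all genes tested were 35.7% and 36.3%.

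**Figure D4:**
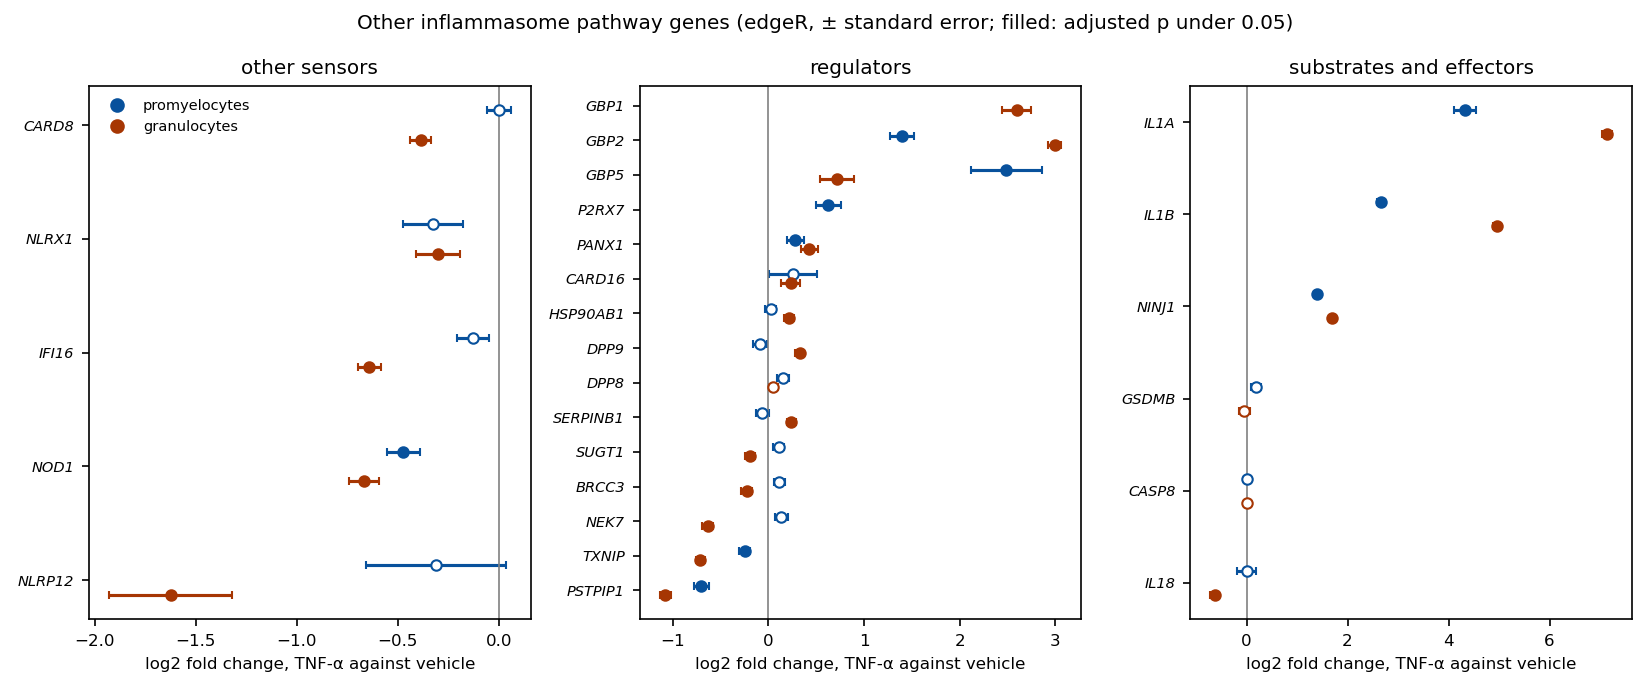
Log2 fold change with TNF-α (horizontal axis, edgeR estimate with its standard error) of the other pathway genes that were tested, by list, in promyelocytes and granulocytes, where filled points passed an adjusted p of 0.05. All 5 other sensors that were tested lie below 0 in granulocytes, and IL1A and IL1B lie farthest to the right, at 7.13 and 4.96 in granulocytes.

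The genes whose pattern over the 12 libraries was most like that of 3 members were taken by Pearson's r of log2 CPM among 12453 genes. For NLRP3 they were CGN (0.995), PHACTR1 (0.993) and DCUN1D3 (0.991). For CASP1 they were SIGLEC11, BATF2 and CSGALNACT1, each at 0.999. For GSDMD they were OGFR (0.991), TOR1A (0.988) and C2CD2L (0.987). The choice depended on the measure. By Spearman's rank correlation only BATF2 (rank 1) and C2CD2L (rank 3) stayed among the 3 nearest, and the others ranked 28 to 140. The points share 4 groups and their library sizes, so the values describe likeness of pattern only.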

How the data were processed

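The authors aligned 150-base read pairs to hg38 with STAR 2.5.3a and counted pairs per gene (GENCODE v27) with featureCounts 1.5.2. They deposited raw counts. Per the file headers, counting took primary alignments, pairs with both ends mapped, and the reverse strand. A read with several equally good places is counted at 1 of them.

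Symbols were matched for 57532 of 58288 identifiers. The 6 libraries of a cell type entered 1 fit (edgeR 4.0.16, R 4.3.3, with TMM, filterByExpr with minimum count 10 and total 15, quasi-likelihood test, Benjamini-Hochberg adjustment over all genes tested, threshold 0.05). The difference of responses and the vehicle levels came from a fit of all 12 libraries. Standard errors are the log2 fold change over the root of F, and intervals are 1.96 of these. The prior count was 0.125. CPM and RPKM use TMM library sizes. At these depths 3 counts, the floor, stand at 0.0945 to 0.136 CPM, for counting error only. Copies were sought with minimap2 2.31-r1302. The fit was tested on simulated data.

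The members and lists were chosen with earlier results of these data known. All 10 members are named. In each pathway list the 4 changed genes with the largest log2 fold changes are named, plus IL1B and IL18. Alternatives were DESeq2's size factors, no filter, DESeq2 1.42.0, a replicate block, offsets for GC content and gene length, 1 fit of all libraries, TPM and leaving out each library. Summing NAIP with its copies was added after the data were seen.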

Additional observations from a re-analysis of the deposited data

Results flagged for a closer look

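The TNF-α responses of 2 inflammasome genes differed between the cell types by the edgeR interaction test. The log2 response of NLRP3 was 0.79 larger in granulocytes than in promyelocytes, and that of NAIP was lower by 0.93 (granulocytes minus promyelocytes, -0.93). Among the other pathway genes named, the response was higher in granulocytes for IL1A (2.85), IL1B (2.34), GBP2 (1.64) and NINJ1 (0.33), and lower for GBP5 (-1.73), IL18 (-0.61), IFI16 (-0.48), CARD8 (-0.35) and PSTPIP1 (-0.34). The cell types were treated in separate experiments, so a difference between the experiments cannot be told apart from one between the cell types.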

How the results depend on the processing

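The calls of NLRP3 and NLRC4 in both cell types, and of NLRP1, NAIP and CASP1 in granulocytes, held when any 1 library was left out and under the other settings. Those of the other pathway genes named did not all hold. Counted per gene, comparison and fit, leaving out 1 library lost 14 calls, added 3 and left 403 results the same. The other settings lost 13 calls and added 7. The count of inflammasome genes changed in promyelocytes was 2, and ran from 2 to 4 when 1 library was left out, with 4 without the third TNF-α library. In granulocytes it was 5, and 8 with offsets for GC content and gene length, with or without the replicate block, where PYCARD, GSDMD and CASP4 were added. The cause was not tested. Levels in TPM, which were not tested, moved too. In granulocytes the TPM mean of PYCARD was 206 ± 10.9 (SD, n = 3) with vehicle and 164 ± 8.36 with TNF-α. That of GSDMD was 17.3 ± 1.33 and 13.8 ± 0.299, and that of CASP1 was 33.7 ± 0.808 and 24.4 ± 1.55. NLRP3 still rose in TPM, from 8.53 ± 0.460 to 21.2 ± 1.19. Same-numbered libraries did not deviate together (correlations of -0.22 to -0.0073), and the main fits did not pair them. With 3 libraries per group, each centred on its group mean, this check cannot exclude a pairing. The replicate block gave 3 inflammasome genes changed in promyelocytes and 5 in granulocytes, and 7 of the vehicle levels, where CASP5 was lost (adjusted p = 0.0594, edgeR).

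Signs turned for values that did not pass the test in any of these settings, near 0 except for GBP1, whose difference of responses was 2.23 (SE 1.45) with 0 to 4 counts in promyelocytes. With the GC content and gene length offsets, then with these and the replicate block, the log2 values were -0.024 and -0.025 for CARD8 and -0.084 and -0.10 for IL18 in promyelocytes, and 0.084 and 0.082 for CASP4 and -0.17 and -0.16 for GSDMD in the difference of responses. With all 12 libraries in 1 fit they were -0.023 for CARD8 and -0.015 for IL18. IL18 stood at -0.00030 with DESeq2 and -0.017 with the replicate block, and the difference of responses of NLRC4 at -0.0025 without the expression filter. Leaving out 1 library gave CARD8 -0.027 to 0.035, IL18 -0.20 to 0.16, NLRC4 -0.098 to 0.19, CASP4 -0.081 to 0.026 and GBP1 -0.88 to 5.73.

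Genes under about 20 counts per library limit what can be read at this depth. Among the members these are AIM2, CASP5, and NLRP1 in promyelocytes. Among the other pathway genes they include NLRP12 in granulocytes with TNF-α and IL1A in vehicle-treated promyelocytes.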
